A study of Mus musculus with 15 samples.

Results

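The mouse secondary palate was compared between embryonic day 15.5 (E15.5) and embryonic day 14.5 (E14.5) by bulk RNA sequencing, with all genes in view. The comparison used 6 of the 15 libraries of a series that covers 5 stages from E13.5 to birth. Each of the 2 stages had 3 libraries, and per the labels every library pooled the palates of 3 wild-type embryos. Both groups were untreated and shared the same genotype; the strain is not given in the sources used here, and the labels give no shared embryo, litter or day across libraries. A p-value here therefore sets the stage difference against the spread between pools of a stage, estimated over all 15 libraries.

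The palatal shelves are outgrowths of cranial neural crest mesenchyme covered by epithelium. They lift above the tongue and meet in the midline at about the first of these stages, and the epithelial seam between them is then removed, so that mesenchyme becomes continuous across the roof of the mouth. Afterwards the front of the palate forms bone, the back forms muscle, the oral face becomes a stratified squamous epithelium and the nasal face a respiratory epithelium with motile cilia and secretory cells. The neural crest cells that build most of the face are generally described as not expressing the Hox genes of the hindbrain.

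Values are counts per 1e6 counted fragments (CPM), given for replicates 1, 2 and 3 in that order. Differences are log2 fold changes (E15.5 minus E14.5) with their standard errors from edgeR's quasi-likelihood test, and "rose" and "fell" stand for a Benjamini-Hochberg adjusted p under 0.05 over all 22151 genes tested. The 6 libraries held 58.2 M to 69.0 M counts, so that 3 counts corresponded to 0.0435 to 0.0515 CPM. Of all genes tested, 2803 (12.7%) rose and 2970 (13.4%) fell, with a median log2 fold change of 0.03. Upper-quartile scaling moved that median to 0.16 and the split to 3424 higher and 2007 lower. The counts of rises and falls in each gene list below are to be read beside the shares of 12.7% and 13.4%. Single libraries carried much weight: 1234 genes were higher and 1086 lower with E14.5 replicate 1 left out, 1449 and 1810 with E14.5 replicate 2 left out, 1616 and 1359 with E15.5 replicate 2 left out, and 1633 and 1377 with E15.5 replicate 3 left out.

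The libraries of a stage were not alike. E14.5 replicate 1 held the most RNA from neurons and E14.5 replicate 3 the least: 20 genes expressed by neurons in general summed to 11669, 8374 and 5432 CPM at E14.5 and 5022, 2499 and 2020.3 CPM at E15.5. Genes of the hindbrain, of the forebrain, of the choroid plexus (the secretory epithelium of the brain ventricles) and of the pituitary were detected too, and their values are given with the falls below. The pools also differed in RNA of the sex chromosomes: *Xist*, transcribed from the inactive X chromosome of females, was at 1.67, 407 and 1.54 CPM at E14.5 and 713, 509 and 1.56 CPM at E15.5. *Ddx3y*, of the Y chromosome, was at 43.2, 25.4 and 53.1 CPM at E14.5 and 0.152, 16.1 and 46.2 CPM at E15.5. Of 5 sex-linked genes 0 passed between the stages by edgeR (0 with an unadjusted p under 0.05), and 0 by DESeq2; the part of sex in the results was not tested. The palate's own transcription factors were present in every library; *Osr2*, needed for shelf growth, stood at 27.8, 36.6 and 48.7 CPM at E14.5 and 16.9, 40.98 and 46.3 CPM at E15.5, and *Pax9* at 31.7, 51.2 and 50.7 CPM at E14.5 and 28.5, 59.4 and 61.7 CPM at E15.5. E15.5 replicate 1 had the most muscle RNA and the least RNA of the nasal lining among the E15.5 libraries, and E15.5 replicate 3 had the most RNA of cornifying epithelium. Fewer cells of a type and less RNA per cell cannot be told apart in bulk tissue.

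Genes were kept apart by whether they also followed neuronal content. A neuronal score, the mean log2 CPM of the 20 neuronal genes centred within each stage, was 0.53, 0.05 and -0.57 in the E14.5 libraries and 0.68, -0.16 and -0.51 in the E15.5 libraries. Outside that list, 2079 of 22131 genes (9.39%) followed the score between libraries of a stage. Among the genes that rose, 195 followed it and 2608 did not; among those that fell, 659 followed it and 2311 did not. When the uncentred score itself was a covariate of the stage difference, 546 genes (2.46%) were higher and 177 (0.799%) lower. Of these, 457 and 164 had also passed without it. The score differed between the stages, so that this covariate takes up part of any stage difference that runs parallel to it.

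The order of the 3 E14.5 libraries differed between rises and falls. Among all genes tested, 35.4% declined from replicate 1 through replicate 2 to replicate 3, the order of their neuronal content. Among the genes that fell, 85.0% did so, and among the falls that did not follow the score 80.9% did. The opposite order held in 25.9% of all genes and in 46.0% of the genes that rose. Among the 164 falls that also passed with the score as covariate, 76.8% still declined in that order, against 24.3% in the opposite order for the 457 rises. The replicate numbers are only names, and the order is that of these 3 pools.

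**Figure D1:**
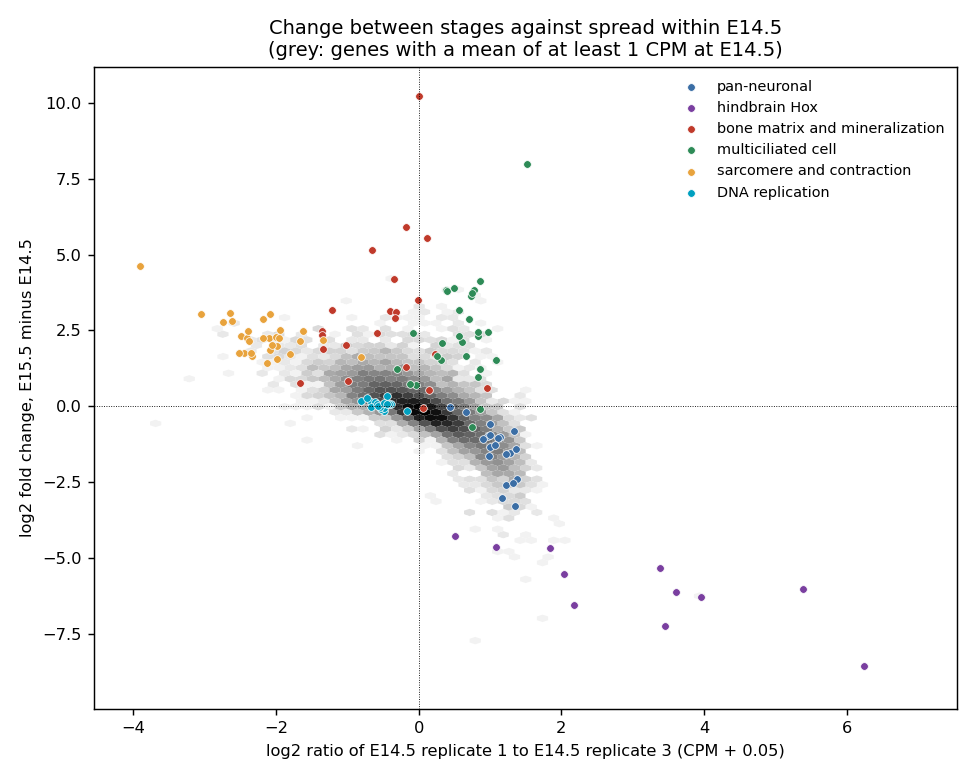
Log2 fold change between stages (vertical axis) against the log2 ratio of E14.5 replicate 1 to E14.5 replicate 3 (horizontal axis, CPM + 0.05); the grey field holds genes with a mean of at least 1 CPM at E14.5 and coloured points are members of 6 lists. Hindbrain Hox and neuronal genes lie at the lower right (high in E14.5 replicate 1, lower at E15.5), sarcomere genes at the upper left, and bone and multiciliated genes rise near the middle.

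Genes of bone matrix rose together. The organic matrix of bone is mostly type I collagen; osteoblasts secrete it and mineralize it with the help of acidic phosphoproteins and of phosphatases that release phosphate. Of 22 tested genes of bone matrix and mineralization, 19 rose and 0 fell, with a median log2 fold change of 2.46 against 0.03 over all genes, and 10 also passed with the neuronal score as covariate. Their summed level went from 3510, 5785 and 7449.7 CPM at E14.5 to 32402, 28012 and 32740 CPM at E15.5.

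*Col1a1*, a chain of type I collagen, stood at 850.2, 1687 and 1975 CPM at E14.5 and 14676, 12327 and 13787 CPM at E15.5. Each E15.5 library lay above each E14.5 library by a wide margin (log2 fold change 3.18 ± 0.34, adjusted p = 0.000254). *Col1a2*, which encodes the other chain, changed by 2.49 ± 0.33, and *Sparc*, a collagen-binding glycoprotein of the matrix, by 2.03 ± 0.30. *Dmp1*, an acidic matrix protein of late osteoblasts and osteocytes, was at 1.03, 0.999 and 0.941 CPM at E14.5 and 35.2, 44.1 and 58.1 CPM at E15.5. The 3 E14.5 values were close to each other and far below all E15.5 values (log2 fold change 5.53 ± 0.41, adjusted p = 5.05e-05). *Spp1* (osteopontin) measured 5.67, 11.8 and 8.99 CPM at E14.5 and 185, 308 and 446 CPM at E15.5 (log2 fold change 5.15 ± 0.54, adjusted p = 0.000205), and *Ibsp* (bone sialoprotein) 69.7, 43.8 and 88.6 CPM at E14.5 and 1072, 1067 and 1566 CPM at E15.5 (log2 fold change 4.20 ± 0.65, adjusted p = 0.00147). Neither gene's groups overlapped, and *Dmp1*, *Spp1* and *Ibsp* passed in all 6 leave-one-out fits.

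Osteocalcin, a late product of osteoblasts, came on from near the detection limit. *Bglap2* had 0 counts in all E14.5 libraries and 1.45, 2.59 and 4.18 CPM at E15.5, at least 61.2-fold higher than 3 counts per library. *Bglap* stood at 0.0312, 0.0757 and 0.0421 CPM at E14.5 and 1.01, 2.49 and 5.80 CPM at E15.5 (log2 fold change 5.90 ± 0.76, adjusted p = 0.000611). The 2 genes are near-identical copies, so that their separate values are uncertain. *Phospho1*, a phosphatase of matrix vesicles, changed by 3.11 ± 0.40, *Ifitm5*, a membrane protein of osteoblasts, by 3.49 ± 0.52, and *Panx3*, a channel protein of osteoblasts, by 2.92 ± 0.50. *Phex*, the osteoblast endopeptidase, measured 3.63, 4.21 and 9.40 CPM at E14.5 and 23.9, 26.2 and 37.5 CPM at E15.5 (log2 fold change 2.35 ± 0.40, adjusted p = 0.00246). *Sost*, the Wnt antagonist of osteocytes, rose at a low level, from 0.685, 0.560 and 0.576 CPM to 1.97, 1.73 and 2.31 CPM (log2 fold change 1.72 ± 0.36, adjusted p = 0.00612). The members that did not pass were *Smpd3* (log2 fold change 0.62 ± 0.33, adjusted p = 0.181), *Cthrc1* (log2 fold change 0.76 ± 0.34, adjusted p = 0.117) and *Pdpn* (log2 fold change -0.07 ± 0.13, adjusted p = 0.732).

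The promoters of 3 of the bone genes are shown because they hold the core of the motif bound by RUNX transcription factors, of which *Runx2* is the one osteoblasts need. The letters searched were TGTGGT on either strand, in the 250 bases before the start of each gene (RefSeq, GRCm38.p6). They occurred in 5 of 17 matched bone genes (*Spp1*, *Bglap*, *Dmp1*, *Mepe* and *Enpp1*, all of which rose), in 5 of 24 matched genes of multiciliated cells and in 13.5% of all 14609 tested genes with a listed promoter. Matches are in capitals, ACCACA being the same motif on the other strand; a match is a description of the letters and not a site of binding. *Dmp1* (chr5:104202367-104202616, plus strand), *Spp1* (chr5:104434861-104435110, plus strand) and *Bglap* (chr3:88384467-88384716, minus strand) read as follows.
Dmp1: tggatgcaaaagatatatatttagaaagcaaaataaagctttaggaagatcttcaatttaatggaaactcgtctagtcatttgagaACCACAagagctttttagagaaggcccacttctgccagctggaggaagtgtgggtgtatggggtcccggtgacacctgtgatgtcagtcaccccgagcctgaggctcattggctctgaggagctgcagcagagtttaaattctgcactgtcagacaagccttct
Spp1: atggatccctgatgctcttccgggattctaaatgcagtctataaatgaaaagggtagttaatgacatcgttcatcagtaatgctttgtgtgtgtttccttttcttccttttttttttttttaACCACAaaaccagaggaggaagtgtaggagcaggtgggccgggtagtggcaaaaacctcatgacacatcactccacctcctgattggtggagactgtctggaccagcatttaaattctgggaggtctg
Bglap: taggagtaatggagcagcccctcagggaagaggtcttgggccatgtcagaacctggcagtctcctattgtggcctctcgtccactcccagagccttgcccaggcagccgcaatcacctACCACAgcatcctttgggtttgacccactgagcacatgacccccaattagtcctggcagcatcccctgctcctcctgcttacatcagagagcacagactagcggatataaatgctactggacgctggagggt

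Among 16 regulators and signals of osteoblasts, 5 rose and 2 fell, with a median of 1.04. *Sp7* (osterix), required for osteoblast formation, was at 27.7, 30.5 and 35.3 CPM at E14.5 and 125, 112 and 157 CPM at E15.5 (log2 fold change 2.07 ± 0.40, adjusted p = 0.00412). *Alpl*, the tissue phosphatase of mineralizing cells, was at 43.7, 46.9 and 57.6 CPM at E14.5 and 249.9, 239 and 303 CPM at E15.5 (log2 fold change 2.42 ± 0.36, adjusted p = 0.00116), and was the only one of the 16 that also passed with the neuronal score as covariate (adjusted p = 0.0276). *Runx2* itself did not pass (log2 fold change 1.09 ± 0.39, adjusted p = 0.0555) although its groups did not overlap, with 25.00, 36.9 and 38.4 CPM at E14.5 and 63.4, 68.5 and 82.2 CPM at E15.5. *Csf1* and *Tnfsf11* (RANKL), which osteoblasts make and which osteoclast precursors need, rose by 1.00 ± 0.16 and 1.72 ± 0.36. *Mef2c*, which also belongs to the muscle list, rose by 1.11 ± 0.33. The 2 that fell, *Sox4* and *Sox11*, are also expressed by neuronal and mesenchymal progenitors: *Sox4* measured 662, 465 and 386 CPM at E14.5 and 151, 163 and 159 CPM at E15.5 (log2 fold change -1.68 ± 0.36, adjusted p = 0.00657), and *Sox11* 683, 459 and 338 CPM at E14.5 and 76.6, 152 and 143 CPM at E15.5 (log2 fold change -1.99 ± 0.64, adjusted p = 0.0373). Both declined along the E14.5 libraries in the order of neuronal content, and neither passed with the score as covariate. *Sox4* was called in all 6 leave-one-out fits and *Sox11* in 1 of them. DESeq2 called 9 of the 16 higher.

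Osteoclasts are the cells of monocyte origin that resorb bone. Of 15 genes of osteoclasts, 10 rose and 0 fell (median 1.26), and 3 (*Ctsk*, *Itgb3* and *Ocstamp*) also passed with the score as covariate. *Ctsk*, the collagen-degrading protease, was at 13.5, 22.3 and 35.1 CPM at E14.5 and 96.7, 122.5 and 185 CPM at E15.5 (log2 fold change 2.51 ± 0.40, adjusted p = 0.00171). *Acp5*, the acid phosphatase used to stain osteoclasts, was at 2.57, 3.06 and 5.15 CPM at E14.5 and 12.4, 39.4 and 75.4 CPM at E15.5 (log2 fold change 3.56 ± 0.59, adjusted p = 0.00218). The E15.5 values of *Acp5* spread widely, with replicate 3 highest and replicate 1 lowest, and the same order held for *Atp6v0d2*, a subunit of the proton pump, at 0.312, 0.303 and 0.604 CPM at E14.5 and 1.99, 6.63 and 12.3 CPM at E15.5. *Atp6v0d2* had the largest log2 fold change of the list, 4.09 ± 0.68 (adjusted p = 0.00212). *Dcstamp* and *Ocstamp*, needed for the fusion of precursors, changed by 3.83 ± 0.74 and 3.42 ± 0.53, and *Tnfrsf11a* (RANK), the receptor for RANKL, by 1.26 ± 0.23. *Clcn7* and *Ostm1*, which acidify lysosomes in many cells, did not pass (-0.08 ± 0.13 and -0.36 ± 0.20), nor did *Nfatc1* and *Car2* (0.82 ± 0.34 and -0.12 ± 0.36). *Calcr* did not pass either, and each E15.5 library lay below each E14.5 library. It was at 10.2, 8.37 and 5.84 CPM at E14.5 and 3.02, 2.09 and 2.60 CPM at E15.5 (log2 fold change -1.66 ± 0.60, adjusted p = 0.0593).

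Macrophages, which share their origin with osteoclasts, clear dying cells from growing tissue. Of 16 macrophage genes, 10 rose and 0 fell (median 0.84), and every E15.5 library lay above every E14.5 library in 15 of them, against 24.0% of all genes tested. *Csf1r*, the receptor for CSF1, was at 30.6, 33.8 and 34.6 CPM at E14.5 and 56.03, 61.5 and 59.1 CPM at E15.5 (log2 fold change 0.84 ± 0.20, adjusted p = 0.00999). *Cd163*, a scavenger receptor for haemoglobin, was near the detection limit at E14.5 and had the largest change: 0.0779, 0.0908 and 0.154 CPM at E14.5 and 1.92, 1.43 and 1.56 CPM at E15.5 (log2 fold change 3.89 ± 0.47, adjusted p = 0.000428). It was the only one of the 16 that passed with the score as covariate (adjusted p = 0.00854). *Mrc1*, *F13a1* and *Cd68* changed by 0.95 ± 0.24, 1.41 ± 0.29 and 1.34 ± 0.29. The count fell to 3 with E14.5 replicate 1 left out, 5 with E14.5 replicate 2 left out, and 6 with E15.5 replicate 1 left out or with E15.5 replicate 2 left out.

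The connective tissue of the palate is held by fibrillar and beaded collagens, elastic fibres and small proteoglycans. Of 28 genes of this matrix, 22 rose and 0 fell (median 1.15), and 3 (*Col5a3*, *Col6a3* and *Fmod*) also passed with the score as covariate. *Col3a1*, the fibrillar collagen of soft connective tissue, was at 1108, 2005 and 2891 CPM at E14.5 and 5305, 3885 and 3542 CPM at E15.5 (log2 fold change 1.08 ± 0.31, adjusted p = 0.0230). *Col5a3*, a minor fibrillar collagen, was at 5.37, 7.55 and 12.8 CPM at E14.5 and 66.6, 40.8 and 28.6 CPM at E15.5 (log2 fold change 2.40 ± 0.44, adjusted p = 0.00344). *Eln* (elastin), *Fmod* (fibromodulin) and *Postn* (periostin) changed by 1.97 ± 0.41, 2.02 ± 0.34 and 1.19 ± 0.29. *Has2*, which makes the hyaluronan of the growing shelf, measured 23.1, 29.7 and 36.2 CPM at E14.5 and 24.6, 25.2 and 24.2 CPM at E15.5, and *Vcan*, the large proteoglycan that binds it, 503, 654 and 636 CPM at E14.5 and 649, 549 and 517 CPM at E15.5. The groups of both overlapped (log2 fold change -0.27 ± 0.21, adjusted p = 0.371 and log2 fold change -0.06 ± 0.32, adjusted p = 0.903). At E14.5, 26 of the 28 genes increased from replicate 1 through 2 to 3, against the neuronal order; with E14.5 replicate 2 left out the count was 14.

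Motile cilia genes rose as a group. Multiciliated cells switch on a cascade in which *Gmnc* and *Mcidas* act first, *Myb*, *Ccno* and *Foxj1* follow, and RFX factors and *Foxj1* turn on the dynein arms, radial spokes and other parts of the axoneme. Of 28 tested genes of these cells, 23 rose and 0 fell (median 2.31), and 9 also passed with the score as covariate. Their summed level was 370.3, 239.9 and 262 CPM at E14.5 and 632, 1170.2 and 1136 CPM at E15.5. At E14.5 only 1 of the 28 increased from replicate 1 through 2 to 3, and the count stayed between 19 and 25 in the fits that left out 1 library.

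*Foxj1* stood at 47.2, 18.3 and 26.6 CPM at E14.5 and 81.6, 181 and 197 CPM at E15.5 (log2 fold change 2.32 ± 0.39, adjusted p = 0.00226), and *Mcidas* at 1.95, 0.545 and 1.49 CPM at E14.5 and 10.97, 22.9 and 22.6 CPM at E15.5 (log2 fold change 3.82 ± 0.60, adjusted p = 0.00161). *Ccno*, which acts in the multiplication of centrioles, was at 3.02, 1.24 and 2.29 CPM at E14.5 and 15.9, 36.4 and 38.1 CPM at E15.5 (log2 fold change 3.79 ± 0.46, adjusted p = 0.000472). In all 3 genes E14.5 replicate 1 was the highest of its stage and E15.5 replicate 1 the lowest of its own, and the groups did not overlap. *Gmnc*, at the head of the cascade, did not pass, with 7.20, 1.91 and 3.96 CPM at E14.5 and 1.40, 5.56 and 5.34 CPM at E15.5 (log2 fold change -0.09 ± 0.63, adjusted p = 0.934). *Rfx3* did not pass either (log2 fold change -0.68 ± 0.45, adjusted p = 0.281).

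Among further members of the list, not all of them parts of the axoneme, *Dnah5*, a heavy chain of the outer dynein arm, was at 4.03, 2.29 and 2.40 CPM at E14.5 and 17.3, 51.97 and 40.3 CPM at E15.5 (log2 fold change 3.65 ± 0.51, adjusted p = 0.000895). *Rsph1*, of the radial spoke, changed by 3.82 ± 0.47, *Tekt1*, a tektin, by 2.89 ± 0.41, *Zmynd10*, which helps to assemble dynein arms, by 3.90 ± 0.42, and *Dynlrb2*, a dynein light chain, by 4.12 ± 0.63. *Tppp3*, a tubulin-binding protein, was at 63.3, 58.6 and 53.2 CPM at E14.5 and 216, 176 and 164 CPM at E15.5 (log2 fold change 1.67 ± 0.28, adjusted p = 0.00235); unlike the other cilia genes named, it was highest in E15.5 replicate 1. *Tmem212* had the largest change of the list. It was at 0.0935, 0.0454 and 0 CPM at E14.5, within the range of a few counts, and at 3.71, 16.5 and 15.5 CPM at E15.5 (log2 fold change 7.97 ± 0.78, adjusted p = 0.000164).

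The 10 largest rises among genes that did not follow the score included *Tmem212* and several further genes outside the lists. *Crocc2*, a relative of the ciliary rootlet protein rootletin (chromosome 1, GRCm38), was at 2.27, 1.73 and 1.88 CPM at E14.5 and 60.4, 129 and 112 CPM at E15.5 (log2 fold change 5.68 ± 0.42, adjusted p = 5.05e-05). *Ccdc153* was at 0.203, 0.166 and 0.154 CPM at E14.5 and 11.3, 39.9 and 41.8 CPM at E15.5 (log2 fold change 7.46 ± 0.57, adjusted p = 5.23e-05), and *Ccdc78*, of the structures that multiply centrioles, at 0.0623, 0 and 0.0702 CPM at E14.5 and 4.58, 14.2 and 13.7 CPM at E15.5 (log2 fold change 7.85 ± 0.73, adjusted p = 0.000141). *2610028H24Rik* was at 0.0779, 0.0757 and 0.0281 CPM at E14.5 and 6.69, 21.9 and 21.02 CPM at E15.5 (log2 fold change 8.06 ± 0.59, adjusted p = 5.05e-05). *AU040972* and *BC051019* changed by 7.04 ± 0.72 and 6.36 ± 0.58. In all of these E15.5 replicate 1 was the lowest of its stage, as in most genes of the cilia list. Groups without overlap were a condition for choosing the 10, so that their separation is no result. *Krt13*, *Mmp13* and *Sec14l3*, described below with their tissues, complete the 10; all 10 also passed with the score as covariate and in every fit that left out 1 library.

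The promoters of 3 cilia genes are shown for the core of the X-box, the motif bound by RFX factors. The letters GTTGCC, on either strand, occurred in the 250 bases before the start in 10 of 24 matched genes of the list and in 9 of the 19 matched genes that rose. They occurred in 12.3% of all 14609 genes, in 1 of 17 bone genes, in 0 of 17 nasal secretory genes and in 3 of 25 sarcomere genes. A single 14-base spelling of the X-box, with a fixed length and fixed central letters, was found in 0 of the 24 and in 0.404% of all genes. Forms with other spacing or other central letters were not searched, so that their presence was not tested. GGCAAC is the same motif on the other strand. *Ccno* (chr13:112987552-112987801, plus strand), *Tekt1* (chr11:72361883-72362132, minus strand, with 2 matches) and *Dynlrb2* (chr8:116504765-116505014, plus strand) read as follows.
Ccno: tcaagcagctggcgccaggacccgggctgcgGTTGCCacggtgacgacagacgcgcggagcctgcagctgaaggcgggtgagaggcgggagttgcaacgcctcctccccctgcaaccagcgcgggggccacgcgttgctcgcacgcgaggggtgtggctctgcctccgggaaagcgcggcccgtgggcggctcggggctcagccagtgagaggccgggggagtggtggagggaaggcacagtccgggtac
Tekt1: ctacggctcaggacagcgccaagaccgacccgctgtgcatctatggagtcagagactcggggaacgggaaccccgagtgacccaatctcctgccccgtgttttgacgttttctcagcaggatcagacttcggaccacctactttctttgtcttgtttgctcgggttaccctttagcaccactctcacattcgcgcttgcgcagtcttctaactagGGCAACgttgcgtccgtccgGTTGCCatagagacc
Dynlrb2: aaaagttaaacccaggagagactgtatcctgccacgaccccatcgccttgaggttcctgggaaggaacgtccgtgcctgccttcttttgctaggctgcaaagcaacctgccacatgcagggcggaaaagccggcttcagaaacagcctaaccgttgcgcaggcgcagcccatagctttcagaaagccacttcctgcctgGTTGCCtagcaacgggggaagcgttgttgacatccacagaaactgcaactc

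The nasal lining also produces antimicrobial and mucous secretions. Of 19 tested genes of nasal secretory cells and glands, 13 rose and 0 fell (median 3.67), and 5 (*Muc5ac*, *Muc16*, *Sec14l3*, *Ltf* and *Bhlha15*) also passed with the score as covariate. *Bpifa1*, an abundant secreted protein of upper airway epithelium, was at 7.34, 4.34 and 8.19 CPM at E14.5 and 13.6, 319 and 371 CPM at E15.5 (log2 fold change 5.15 ± 1.04, adjusted p = 0.00524). Replicates 2 and 3 of E15.5 were far above replicate 1, which lay just above the E14.5 libraries. *Reg3g*, an antimicrobial lectin, had the same shape at 1.28, 1.18 and 1.67 CPM at E14.5 and 5.04, 37.00 and 38.2 CPM at E15.5 (log2 fold change 4.28 ± 0.73, adjusted p = 0.00231). The mucins were more even: *Muc5ac* was at 0.0623, 0.0908 and 0.140 CPM at E14.5 and 1.11, 1.16 and 1.39 CPM at E15.5 (log2 fold change 3.60 ± 0.58, adjusted p = 0.00189) and *Muc16*, a membrane mucin, at 0.405, 0.515 and 0.702 CPM at E14.5 and 7.47, 15.8 and 8.10 CPM at E15.5 (log2 fold change 4.27 ± 0.62, adjusted p = 0.00108). *Ltf* (lactoferrin) was at 0.280, 0.681 and 1.22 CPM at E14.5 and 8.97, 11.8 and 11.8 CPM at E15.5 (log2 fold change 3.89 ± 0.60, adjusted p = 0.00143), and *Sec14l3*, a lipid-binding protein, at 0.670, 0.318 and 0.520 CPM at E14.5 and 16.1, 43.04 and 39.8 CPM at E15.5 (log2 fold change 6.03 ± 0.51, adjusted p = 0.000110). *Scgb1c1*, a secretoglobin, had the largest change of the list, from at most 2 counts in any E14.5 library, but overlapping groups: 0, 0.0303 and 0.0140 CPM at E14.5 and 0.0169, 1.83 and 2.11 CPM at E15.5 (log2 fold change 6.27 ± 1.91, adjusted p = 0.0305). In most markers of olfactory neurons, another cell type of the nasal cavity, E15.5 replicate 1 was likewise the lowest of its stage. *Gnal* went the other way, at 112, 80.9 and 55.8 CPM at E14.5 and 101, 61.9 and 49.9 CPM at E15.5. *Omp*, the marker of mature olfactory neurons, was at 2.15, 1.15 and 1.88 CPM at E14.5 and 0.641, 30.3 and 29.9 CPM at E15.5 and did not pass (log2 fold change 3.55 ± 1.32, adjusted p = 0.0640). *Ebf2*, a transcription factor, was at 102, 64.8 and 87.2 CPM at E14.5 and 62.2, 104 and 90.6 CPM at E15.5 (log2 fold change 0.02 ± 0.36, adjusted p = 0.977). Of 12 genes of olfactory neurons 2 rose and 0 fell, while 12.7% of all genes tested rose and 13.4% fell. *Stoml3*, a membrane protein of cilia, was at 0.265, 0.0454 and 0.0843 CPM at E14.5 and 0.455, 11.5 and 8.01 CPM at E15.5 (log2 fold change 5.65 ± 1.05, adjusted p = 0.00344). *Ano2*, a chloride channel, was at 1.50, 0.863 and 1.25 CPM at E14.5 and 1.79, 8.11 and 6.94 CPM at E15.5 (log2 fold change 2.22 ± 0.66, adjusted p = 0.0282). The count was 4 with E15.5 replicate 1 left out, 1 with any other library left out, and 5 by DESeq2. Their summed level was 362, 228 and 239.7 CPM at E14.5 and 223, 423 and 396 CPM at E15.5, and its part in the nasal result was not tested.

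The oral epithelium showed a change of keratins. Suprabasal cells of lining mucosa make *Krt4* and *Krt13*, cornifying cells *Krt1* and *Krt10*, and basal cells *Krt5* and *Krt14*. Of 21 genes of suprabasal and cornified epithelium, 8 rose and 0 fell (median 2.58), and 2 (*Krt13* and *Krt6a*) also passed with the score as covariate. *Krt13* was at 0.498, 0.545 and 0.997 CPM at E14.5 and 57.8, 146 and 331 CPM at E15.5 (log2 fold change 8.03 ± 0.87, adjusted p = 0.000254). Its partner *Krt4* was at 1.122, 2.06 and 6.36 CPM at E14.5 and 25.8, 70.3 and 125 CPM at E15.5 (log2 fold change 4.53 ± 0.90, adjusted p = 0.00475); it followed the neuronal score with the opposite sign and did not pass with the score as covariate (adjusted p = 0.0698). *Krt6a*, which shares reads with its near-identical neighbour *Krt6b* and is therefore uncertain, was at 4.17, 4.51 and 4.06 CPM at E14.5 and 31.9, 74.98 and 138 CPM at E15.5 (log2 fold change 4.26 ± 0.62, adjusted p = 0.00115). *Sprr3*, a precursor of the cornified envelope, was at 0.0156, 0.0303 and 0.0562 CPM at E14.5 and 0.337, 2.22 and 13.4 CPM at E15.5 (log2 fold change 7.18 ± 1.63, adjusted p = 0.00857); it belongs to a family of similar genes. *Krt1* and *Krt10* did not pass. *Krt1* was at 8.60, 14.8 and 8.01 CPM at E14.5 and 2.98, 15.3 and 170.4 CPM at E15.5 and *Krt10* at 7.87, 11.03 and 11.8 CPM at E14.5 and 4.79, 6.13 and 95.8 CPM at E15.5, with only E15.5 replicate 3 above the rest.

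Of 15 genes of basal epithelium, 5 rose (*Krt15*, *Dsg3*, *Pkp1*, *Itgb4* and *Lamb3*) and 0 fell (median 1.14), none with the score as covariate. *Krt5* was at 106, 128 and 156 CPM at E14.5 and 153, 363 and 724 CPM at E15.5 (log2 fold change 1.67 ± 0.80, adjusted p = 0.138), with E15.5 replicate 1 inside the E14.5 range. *Dst*, which anchors keratin to the basement membrane and is also expressed in neurons and muscle, was at 372, 315 and 245 CPM at E14.5 and 427, 252 and 200.2 CPM at E15.5. *Dsg3*, an adhesion protein of desmosomes, had the largest change of the 5 (log2 fold change 2.67 ± 0.91, adjusted p = 0.0465). The count of 5 rested on single libraries: it was 0 with E14.5 replicate 1 left out, 1 with E15.5 replicate 3 left out, 2 with E14.5 replicate 2 or E15.5 replicate 2 left out, and 3 with E14.5 replicate 3 left out.

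Regulators of fusion and of the periderm, the flat outer layer that shields the shelves before they meet, mostly did not pass. Of 19, 2 rose, *Tgfb3* and *Mmp13*, and 0 fell (median 0.46), while 12.7% of all genes tested rose and 13.4% fell. *Tgfb3*, the growth factor of the medial edge epithelium that is required for fusion, was at 34.5, 71.4 and 95.02 CPM at E14.5 and 148, 124 and 109.7 CPM at E15.5 (log2 fold change 0.93 ± 0.31, adjusted p = 0.0456); it is also made by other cells, among them muscle. The call on *Tgfb3* was kept in 1 of the 6 fits without 1 library. The count of 2 was 1 in 4 of these fits and 5 with E15.5 replicate 1 left out. In the fits without E14.5 replicate 3 or without E15.5 replicate 3, 1 of the 19 fell. DESeq2 called 3 higher and 2 lower, the fit with only the 6 libraries 1 higher and 2 lower, and the replicate block 1 higher and 1 lower. *Mmp13*, a collagenase of the seam and also of osteoblasts and hypertrophic chondrocytes, was at 0.467, 0.621 and 0.323 CPM at E14.5 and 5.33, 43.1 and 87.5 CPM at E15.5 (log2 fold change 6.59 ± 0.83, adjusted p = 0.000548). Its E15.5 values had the same order as those of *Acp5*, and it passed with the score as covariate (adjusted p = 0.0274). *Jag2* was at 82.3, 73.05 and 66.1 CPM at E14.5 and 82.4, 88.3 and 88.6 CPM at E15.5 (log2 fold change 0.23 ± 0.14, adjusted p = 0.239) and *Zeb2*, a repressor of epithelial genes, at 118, 97.7 and 86.9 CPM at E14.5 and 109, 86.3 and 87.3 CPM at E15.5 (log2 fold change -0.10 ± 0.27, adjusted p = 0.811). 7 of the 19 followed the neuronal score with the opposite sign, among them *Grhl2*, *Esrp1*, *Cdh1* and *Epcam*.

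**Figure D2:**
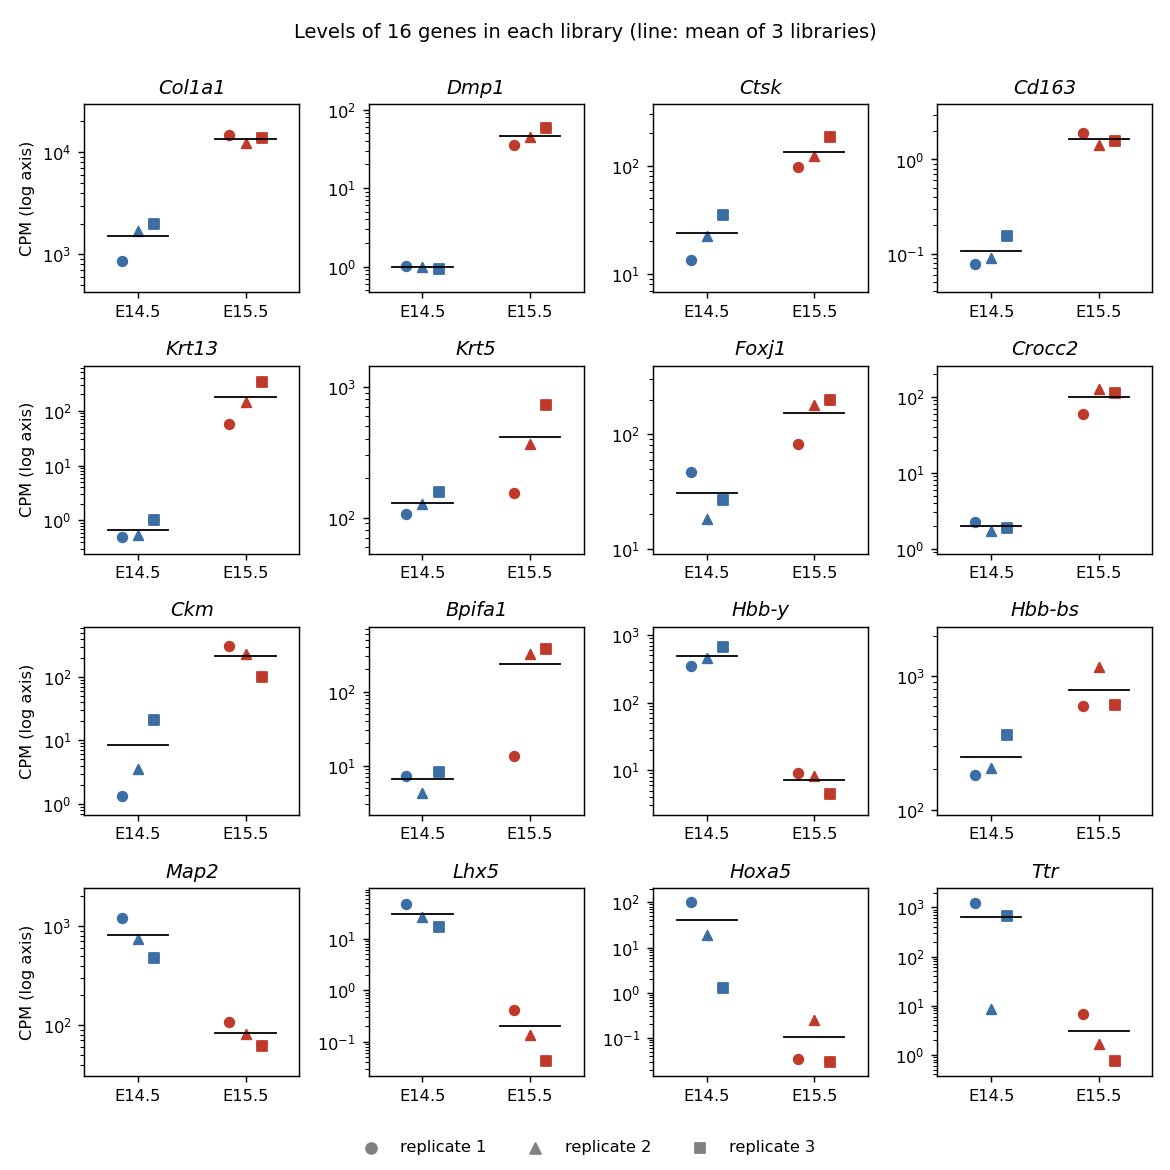
CPM in each library (points, log axis; circles, triangles and squares are replicates 1, 2 and 3; lines are means of the 3 libraries) for 16 genes at E14.5 and E15.5. In *Col1a1* and *Dmp1* the 3 libraries of a stage sit close together, in *Krt13*, *Krt5* and *Bpifa1* the E15.5 libraries are spread, and in *Hoxa5* and *Ttr* the E14.5 libraries are spread over more than 1 log unit.

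Genes of the contractile apparatus rose, and how many passed depended on single libraries. Skeletal muscle of the soft palate and tongue base forms by fusion of myoblasts, after which the contractile proteins accumulate. Of 30 genes of the sarcomere and of contraction, 23 rose and 0 fell (median 2.24), none with the score as covariate. *Myh3*, the embryonic myosin heavy chain, was at 109, 169 and 470.1 CPM at E14.5 and 1949, 869 and 721 CPM at E15.5 (log2 fold change 2.24 ± 0.62, adjusted p = 0.0209). *Ckm*, muscle creatine kinase, had the largest change at 1.34, 3.53 and 20.8 CPM at E14.5 and 306, 232 and 98.9 CPM at E15.5 (log2 fold change 4.63 ± 1.07, adjusted p = 0.00929). E14.5 replicate 3 had more muscle RNA than the other E14.5 libraries together, and E15.5 replicate 1 the most of all. The summed level of the 30 genes was 588, 816 and 2736 CPM at E14.5 and 10638, 5440 and 3924 CPM at E15.5. All 30 increased from E14.5 replicate 1 through 2 to 3. The number that rose was 1 with E14.5 replicate 1 left out, 2 with E14.5 replicate 2 left out, 5 with E15.5 replicate 1 left out, 9 with E15.5 replicate 2 left out and 29 with E14.5 replicate 3 left out. It was 14 with only the 6 libraries in the fit. A loose pattern for the motif of MEF2 factors, with any letters allowed in its centre, was found in the promoters of 2 of 25 matched genes and of 3.48% of all genes. The pattern is wider than the motif itself, so that both figures can include other sequences.

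Myoblasts are committed and fused by a set of regulators that act before the contractile genes. Of 15, 3 rose (*Myf6*, *Mef2c* and *Chrng*) and 0 fell (median 1.25), none with the score as covariate. *Myog*, which drives differentiation, was at 23.6, 28.3 and 87.5 CPM at E14.5 and 155, 53.9 and 65.99 CPM at E15.5 (log2 fold change 0.98 ± 0.61, adjusted p = 0.248). *Mymk*, the fusion protein of myoblasts, was at 4.16, 5.68 and 17.7 CPM at E14.5 and 49.7, 19.2 and 20.97 CPM at E15.5 (log2 fold change 1.70 ± 0.61, adjusted p = 0.0565). *Mef2c* was at 52.9, 73.95 and 95.02 CPM at E14.5 and 209.8, 125 and 145 CPM at E15.5 (log2 fold change 1.11 ± 0.33, adjusted p = 0.0272) and *Myf6* at 0.171, 0.151 and 2.13 CPM at E14.5 and 7.60, 4.20 and 3.43 CPM at E15.5 (log2 fold change 2.62 ± 0.85, adjusted p = 0.0384). The count of 3 was 0 with E14.5 replicate 1, E14.5 replicate 2, E15.5 replicate 1 or E15.5 replicate 3 left out, 1 with E15.5 replicate 2 left out and 8 with E14.5 replicate 3 left out.

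Cartilage genes did not move together. Of 21, 2 rose and 1 fell, with a median of -0.45. *Col2a1*, the main cartilage collagen, was at 300.2, 1616 and 1953 CPM at E14.5 and 451, 1381 and 560.0 CPM at E15.5 (log2 fold change -0.69 ± 0.78, adjusted p = 0.535), with low values in E14.5 replicate 1 and in E15.5 replicates 1 and 3. *Acan* and *Matn1*, further matrix genes of cartilage, varied the same way: *Matn1* was at 7.34, 76.7 and 132 CPM at E14.5 and 6.93, 25.98 and 9.27 CPM at E15.5. The 2 that rose belong to hypertrophic cartilage, the form that precedes bone: *Col10a1* was at 0.249, 0.197 and 0.309 CPM at E14.5 and 1.85, 3.58 and 4.30 CPM at E15.5 (log2 fold change 3.67 ± 0.69, adjusted p = 0.00353) and *Ihh* at 1.26, 1.59 and 1.69 CPM at E14.5 and 4.64, 3.89 and 4.48 CPM at E15.5 (log2 fold change 1.52 ± 0.41, adjusted p = 0.0187). The call on *Col10a1* was kept in all 6 leave-one-out fits and that on *Ihh* in 3. *Sox5*, which acts in early cartilage, fell (log2 fold change -1.09 ± 0.35, adjusted p = 0.0387), and its call was kept in 0 of the 6. *Sox9* passed only with the score as covariate (adjusted p = 0.0402, against 0.0712 without it).

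Blood showed a switch of globins. Primitive red cells from the yolk sac carry embryonic globins, and definitive red cells from the fetal liver carry the adult forms. Of 15 erythroid genes, 3 fell and 0 rose (median 0.19), and the 3 were the embryonic globins, which also passed with the score as covariate and in all fits without 1 library. *Hbb-y* was at 355, 459 and 658 CPM at E14.5 and 9.15, 8.12 and 4.37 CPM at E15.5 (log2 fold change -6.09 ± 0.68, adjusted p = 0.000284). *Hbb-bh1* and *Hba-x* fell by 4.28 ± 0.40 and 4.48 ± 0.49 on the log2 scale. The adult gene *Hbb-bs*, at 183, 206 and 359 CPM at E14.5 and 594, 1158 and 606 CPM at E15.5, did not pass (log2 fold change 1.66 ± 0.59, adjusted p = 0.0552); it and *Hbb-bt*, and likewise *Hba-a1* and *Hba-a2*, are close copies whose separate values are uncertain. Of all beta-type globin counts, the embryonic genes made up 57.8% ± 3.22 (SD, n = 3) at E14.5 and 0.777% ± 0.391 at E15.5. *Hba-x* made up 17.2% ± 1.56 and 0.464% ± 0.163 of alpha-type counts. All 3 embryonic globins were lower in E14.5 replicate 1 than in E14.5 replicate 3.

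Neurons of the cranial nerves reach the palate, and the brain lies above it. Of the 20 pan-neuronal genes 9 fell and 0 rose (median -1.30), and 1, *Ina*, also passed with the score as covariate. The score is built from these genes, so that their relation to it is no result. *Tubb3*, the neuronal tubulin, was at 1886, 1342 and 809 CPM at E14.5 and 671, 375 and 314 CPM at E15.5 (log2 fold change -1.57 ± 0.48, adjusted p = 0.0310), and *Map2*, a protein of dendrites, at 1204, 742 and 471 CPM at E14.5 and 107, 81.4 and 61.1 CPM at E15.5 (log2 fold change -3.28 ± 0.61, adjusted p = 0.00351). *Nefl*, a neurofilament of axons, was at 618, 604 and 391 CPM at E14.5 and 882, 276 and 248 CPM at E15.5 and did not pass (log2 fold change -0.20 ± 0.91, adjusted p = 0.891); its highest value was in E15.5 replicate 1. Of 25 synaptic and channel genes 9 fell and 0 rose (median -1.22). With the score as covariate none of them fell, *Cplx1* was higher and the median was 0.35. All 25 declined along the E14.5 libraries in the order of the score. *Slc32a1*, the vesicular transporter of inhibitory neurons of the central nervous system, was at 54.2, 38.1 and 20.9 CPM at E14.5 and 1.05, 0.417 and 0.0723 CPM at E15.5 (log2 fold change -6.21 ± 1.23, adjusted p = 0.00469), while *Slc17a6*, that of excitatory neurons including sensory ones, was at 114, 68.9 and 45.2 CPM at E14.5 and 62.5, 25.7 and 19.3 CPM at E15.5 (log2 fold change -1.09 ± 0.90, adjusted p = 0.392). *Vamp2*, of synaptic vesicles, was at 248, 207 and 154 CPM at E14.5 and 188, 146 and 132 CPM at E15.5 (log2 fold change -0.38 ± 0.24, adjusted p = 0.247). Without E14.5 replicate 1, 4 pan-neuronal and 2 synaptic genes fell; with E15.5 replicate 2 left out the counts were 5 and 3, and with E15.5 replicate 3 left out they were 4 and 3.

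The 10 largest falls that did not follow the score were *Hoxa5*, *Hoxc5*, *Kcne2*, *Ttr*, *Slc6a5*, *Lhx1*, *Lhx5*, *Lhx1os*, *Otp* and *Lamp5*. Not following means only that the score's coefficient did not pass. Those of *Lhx1* (1.73), *Lhx1os* (1.64), *Lhx5* (1.43), *Otp* (1.11) and *Slc6a5* (0.89) were positive, beside 1.74 for *Grm5* and 1.61 for *Pou3f2*, which followed it. *Hoxc5* (0.12) and *Lamp5* (0.006) had small ones, and *Hoxa5* (-0.53), *Ttr* (-0.90) and *Kcne2* (-1.55) negative ones. *Lhx1* and *Lhx5*, LIM factors of interneurons, were at 115, 46.8 and 30.7 CPM at E14.5 and 0.775, 0.268 and 0.159 CPM at E15.5 (log2 fold change -7.33 ± 1.36, adjusted p = 0.00349) and 47.8, 27.1 and 16.9 CPM at E14.5 and 0.421, 0.134 and 0.0434 CPM at E15.5 (log2 fold change -7.27 ± 1.27, adjusted p = 0.00269). *Slc6a5*, the glycine transporter of inhibitory neurons of the hindbrain and spinal cord, was at 33.3, 25.02 and 11.6 CPM at E14.5 and 0.236, 0.0596 and 0.0579 CPM at E15.5 (log2 fold change -7.63 ± 1.50, adjusted p = 0.00452). *Otp*, a homeobox factor of hypothalamic and spinal neurons, measured 30.7, 46.5 and 24.7 CPM at E14.5 and 0.607, 0.0596 and 0.0289 CPM at E15.5 (log2 fold change -7.22 ± 1.70, adjusted p = 0.0101), and *Lamp5*, a membrane protein of neurons, 102, 82.5 and 39.2 CPM at E14.5 and 0.556, 0.730 and 0.709 CPM at E15.5 (log2 fold change -6.80 ± 1.00, adjusted p = 0.00117). *Lhx1os*, a transcript on the other strand next to *Lhx1*, changed by -6.88 ± 1.33; the counting used strand. That the groups did not overlap was a condition for choosing these 10 and is no result. Of the 10, *Lamp5* (adjusted p = 0.0276) and *Kcne2* (adjusted p = 0.0432) also passed with the score as covariate. The 5 largest falls that followed the score were *Lhx9* (-6.75 ± 1.58), *Gbx1* (-6.29 ± 1.25), *Mir124-2hg*, the host transcript of a neuronal microRNA (-5.15 ± 1.10), *Grm5* (-4.46 ± 1.08) and *Pou3f2* (-4.21 ± 1.01). None of these 5 passed with the score as covariate, and the call on *Grm5* was lost without some single libraries (adjusted p up to 0.0523).

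Hox genes of the hindbrain and neck were far lower at E15.5. The tissue that their RNA came from was not tested. Of 11 tested, 5 fell and 0 rose (median -6.03); every E15.5 library lay below every E14.5 library in all 11, against 27.2% of all genes tested. *Hoxa5* was at 102, 18.9 and 1.29 CPM at E14.5 and 0.0337, 0.253 and 0.0289 CPM at E15.5 (log2 fold change -8.55 ± 2.32, adjusted p = 0.0189). The 3 E14.5 values were far apart, with replicate 1 highest and replicate 3 lowest, and all lay above the E15.5 values. *Hoxb3* was at 159, 80.9 and 34.96 CPM at E14.5 and 0.489, 2.36 and 0.101 CPM at E15.5 (log2 fold change -6.54 ± 2.09, adjusted p = 0.0367) and *Hoxc5* at 29.95, 8.10 and 2.68 CPM at E14.5 and 0.0843, 0.104 and 0.0723 CPM at E15.5 (log2 fold change -7.25 ± 1.37, adjusted p = 0.00371). The summed level of the 11 was 656, 251 and 97.8 CPM at E14.5 and 2.76, 13.8 and 0.911 CPM at E15.5. None followed the score between libraries of a stage over all 15 libraries and none passed with it as covariate, but all 11 declined along the E14.5 libraries in its order. The count was 2 with E14.5 replicate 1, E15.5 replicate 1 or E15.5 replicate 2 left out, 1 with E15.5 replicate 3 left out, 3 with E14.5 replicate 2 left out, and 10 by DESeq2.

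Of 16 genes of neural progenitors, 5 fell and 0 rose (median -1.35). *Fabp7*, a fatty acid binding protein of radial glia, was at 336, 308 and 192 CPM at E14.5 and 130.2, 88.4 and 76.7 CPM at E15.5 (log2 fold change -1.50 ± 0.41, adjusted p = 0.0203), and *Zic1*, of dorsal neural tissue and also some head mesenchyme, at 269.8, 112 and 83.8 CPM at E14.5 and 12.7, 13.7 and 9.01 CPM at E15.5 (log2 fold change -3.72 ± 0.61, adjusted p = 0.00207). *Zic1* was the only one of the 16 that passed with the score as covariate (adjusted p = 0.0435). The count was 2 with E14.5 replicate 1 or E15.5 replicate 3 left out and 3 with E14.5 replicate 2 or E15.5 replicate 2 left out. Of 13 choroid plexus genes 3 fell and 0 rose (median -0.86). *Ttr* (transthyretin) was at 1224, 8.64 and 673 CPM at E14.5 and 6.83, 1.67 and 0.738 CPM at E15.5 (log2 fold change -7.70 ± 2.21, adjusted p = 0.0240), and *Kcne2*, a potassium channel subunit, at 37.5, 0.257 and 22.1 CPM at E14.5 and 0.118, 0.0894 and 0.0579 CPM at E15.5 (log2 fold change -7.79 ± 2.01, adjusted p = 0.0151). E14.5 replicates 1 and 3 held nearly all of it, and E14.5 replicate 2 was close to the E15.5 libraries. Without E15.5 replicate 2 or 3 only 1 of the 13 fell; the highest adjusted p of *Ttr* without 1 library was 0.0882.

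Of 16 genes of the forebrain, 3 fell and 0 rose (median -0.50), while 13.4% of all genes tested fell and 12.7% rose. None of the 16 passed with the score as covariate. The 3 were *Lhx9*, a LIM factor, and *Gad1* and *Gad2*, which make the transmitter of inhibitory neurons. *Lhx9* was at 73.9, 10.1 and 6.25 CPM at E14.5 and 0.455, 0.313 and 0.0723 CPM at E15.5 (log2 fold change -6.75 ± 1.58, adjusted p = 0.00992). *Gad1* was at 70.2, 44.9 and 26.8 CPM at E14.5 and 1.99, 1.25 and 0.651 CPM at E15.5 (log2 fold change -5.19 ± 0.95, adjusted p = 0.00332). *Gad2* was at 55.6, 33.3 and 22.6 CPM at E14.5 and 1.38, 3.31 and 3.399 CPM at E15.5 (log2 fold change -3.78 ± 1.21, adjusted p = 0.0365). The call on *Gad2* was kept in 1 of the 6 leave-one-out fits, the others in all 6. *Bcl11b*, also expressed outside the brain, was at 127, 85.5 and 66.2 CPM at E14.5 and 26.3, 50.5 and 52.3 CPM at E15.5 (log2 fold change -1.11 ± 0.66, adjusted p = 0.228). Of 11 pituitary genes 1 fell and 0 rose (median 0.34). *Lhx4*, a factor of the early pituitary and of neurons, was at 9.25, 10.6 and 5.34 CPM at E14.5 and 0.421, 0.0745 and 0.116 CPM at E15.5 (log2 fold change -5.37 ± 0.93, adjusted p = 0.00256), passed in all 6 leave-one-out fits and did not pass with the score as covariate (adjusted p = 0.0586). *Pomc*, a hormone precursor, was at 5.34, 23.3 and 23.02 CPM at E14.5 and 59.9, 49.8 and 37.3 CPM at E15.5 and did not pass (log2 fold change 1.51 ± 1.55, adjusted p = 0.495), although its groups did not overlap. *Gh* (growth hormone) was at 0.0156, 0.0151 and 0.969 CPM at E14.5 and 1.35, 5.05 and 4.01 CPM at E15.5 (log2 fold change 3.34 ± 2.28, adjusted p = 0.295). *Pitx1*, also expressed in oral epithelium, was at 34.1, 30.1 and 37.7 CPM at E14.5 and 24.6, 43.7 and 61.01 CPM at E15.5 (log2 fold change 0.34 ± 0.48, adjusted p = 0.628).

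Of 7 tested genes of tooth enamel and dentine, 1 rose and 1 fell (median 2.17). *Amelx* (amelogenin) was near the detection limit, at 0.0156, 0 and 0 CPM at E14.5 and 0.253, 0.0745 and 0.0723 CPM at E15.5 (log2 fold change 4.20 ± 1.18, adjusted p = 0.0224). *Klk4*, an enamel protease, was at 1.78, 0.0605 and 0.885 CPM at E14.5 and 0.0506, 0.0596 and 0.101 CPM at E15.5 with overlapping groups (log2 fold change -3.63 ± 1.07, adjusted p = 0.0266). The call on each was kept in 2 of the 6 leave-one-out fits.

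Schwann cells ensheath the nerves of the palate. Of 12 genes of Schwann cells and neural crest glia, 3 rose, *Pmp22* and *Dhh* among them, and 1 fell, *Pou3f1*, which is also a neuronal gene. *Dhh*, the hedgehog ligand of Schwann cells, was at 1.81, 2.88 and 2.71 CPM at E14.5 and 14.9, 7.44 and 6.25 CPM at E15.5 (log2 fold change 1.95 ± 0.55, adjusted p = 0.0229) and also passed with the score as covariate. *Pmp22*, a myelin protein also expressed in mesenchyme, was at 38.3, 65.02 and 91.5 CPM at E14.5 and 175, 124 and 115 CPM at E15.5 (log2 fold change 1.08 ± 0.34, adjusted p = 0.0336). *Pou3f1* was at 23.1, 13.2 and 8.48 CPM at E14.5 and 2.61, 1.39 and 1.98 CPM at E15.5 (log2 fold change -2.90 ± 0.67, adjusted p = 0.00918). The count of 3 fell to 0 with E14.5 replicate 1, E14.5 replicate 2 or E15.5 replicate 1 left out, and to 1 with E15.5 replicate 2 left out.

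The 5 largest rises that followed the score were *Krt4*, *Lgals3*, *Cbr2*, *Cyp2f2* and *Serpinb11*, and all 5 were higher in libraries with less neuronal RNA. *Lgals3* (galectin-3) was at 1.17, 2.45 and 3.64 CPM at E14.5 and 18.8, 51.5 and 68.6 CPM at E15.5 (log2 fold change 4.25 ± 0.54, adjusted p = 0.000544). *Cbr2*, a carbonyl reductase of airway, was at 11.1, 8.26 and 13.8 CPM at E14.5 and 59.5, 239 and 248 CPM at E15.5 (log2 fold change 4.04 ± 0.54, adjusted p = 0.000714), and *Cyp2f2*, a cytochrome P450 of airway, at 6.85, 8.75 and 13.4 CPM at E14.5 and 59.6, 134 and 130.4 CPM at E15.5 (log2 fold change 3.48 ± 0.56, adjusted p = 0.00181). All 3 also passed with the score as covariate, whereas *Krt4* and *Serpinb11* (log2 fold change 3.31 ± 0.75, adjusted p = 0.00856) did not.

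**Figure D3:**
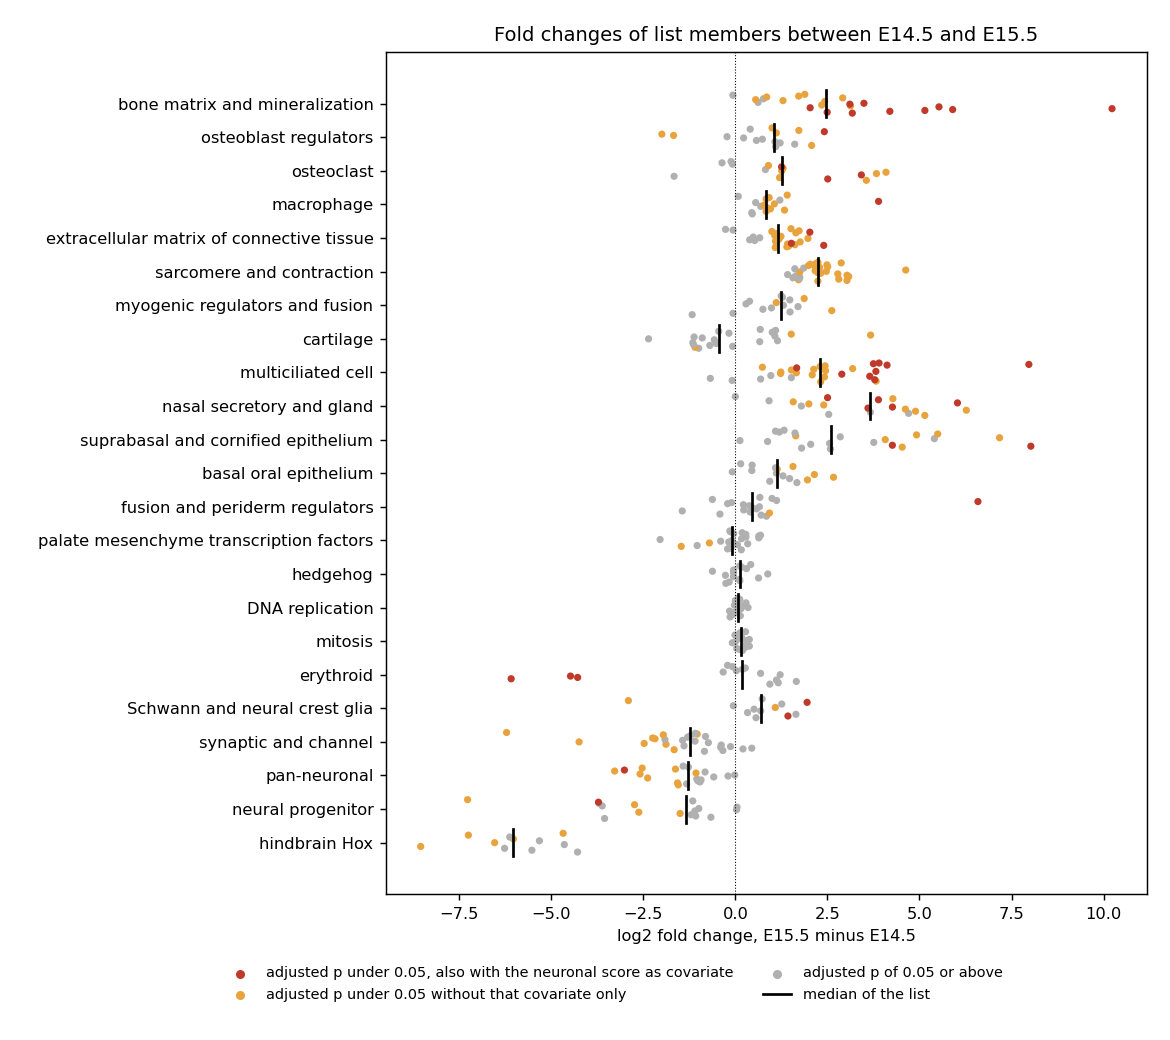
Log2 fold change between E14.5 and E15.5 (horizontal axis) for each tested member (points) of the gene lists, with the median of each list as a black line. Red points passed the adjusted p of 0.05 with and without the neuronal score as covariate, orange points without it only, grey points did not pass; red is frequent in bone, multiciliated and nasal lists and absent from the sarcomere list.

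Of 23 transcription factors of palate mesenchyme, 0 rose and 2 fell (median -0.09), while 12.7% of all genes tested rose and 13.4% fell. *Shox2*, of the front of the shelf, was at 95.6, 79.5 and 58.6 CPM at E14.5 and 23.8, 24.7 and 35.9 CPM at E15.5 (log2 fold change -1.47 ± 0.45, adjusted p = 0.0314). *Mn1*, of the back, was at 109.8, 121 and 106 CPM at E14.5 and 86.5, 65.7 and 54.7 CPM at E15.5 (log2 fold change -0.70 ± 0.20, adjusted p = 0.0241). Neither passed with the score as covariate, and the count of 2 was 0 with E14.5 replicate 1, E14.5 replicate 2, E15.5 replicate 2 or E15.5 replicate 3 left out and 1 with E15.5 replicate 1 left out. *Prrx1* was at 143, 221 and 294 CPM at E14.5 and 242, 238 and 261 CPM at E15.5 (log2 fold change 0.17 ± 0.27, adjusted p = 0.670). *Msx1*, of the front, was at 51.5, 49.9 and 54.04 CPM at E14.5 and 16.6, 45.3 and 79.6 CPM at E15.5, with overlapping groups (log2 fold change -0.13 ± 0.84, adjusted p = 0.922).

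Of the signalling pathways that pattern the shelf, hedgehog showed no passing gene by edgeR over all 15 libraries. Of 15 ligands, receptors and targets 0 rose and 0 fell there, and 1 had an unadjusted p under 0.05. DESeq2 called 1 higher, as did the edgeR fits with only the 6 libraries and without E14.5 replicate 3. *Shh*, the ligand of the palatal ridges, was at 6.64, 8.51 and 5.74 CPM at E14.5 and 2.63, 4.49 and 10.3 CPM at E15.5. *Smo*, the signal transducer, was at 129, 177 and 196 CPM at E14.5 and 187, 176 and 179 CPM at E15.5 (log2 fold change 0.11 ± 0.18, adjusted p = 0.676). The targets *Ptch1* and *Gli1* changed by -0.17 ± 0.46 and 0.63 ± 0.46. Of 20 BMP genes, 0 rose and *Id4*, a target also expressed in neural progenitors, fell (log2 fold change -1.28 ± 0.44, adjusted p = 0.0473). The call on *Id4* was kept in 1 of the 6 leave-one-out fits (without E14.5 replicate 3) and lost with DESeq2's size factors, upper-quartile scaling, the replicate block and both other filters. *Id3*, a further target, was at 116, 139.8 and 158 CPM at E14.5 and 145, 158 and 172 CPM at E15.5 (log2 fold change 0.20 ± 0.23, adjusted p = 0.551). *Bmp2* and *Bmp4*, ligands of both epithelium and mesenchyme, changed by 0.26 ± 0.31 and 0.61 ± 0.29, and the receptor *Bmpr1a* by -0.01 ± 0.17. Of 19 FGF genes, the ligands *Fgf1* and *Fgf2* rose and 0 fell; 6 rose with E14.5 replicate 3 left out, and 6 by DESeq2. *Fgf1* was at 2.38, 2.57 and 4.65 CPM at E14.5 and 19.8, 14.7 and 12.9 CPM at E15.5 (log2 fold change 2.30 ± 0.47, adjusted p = 0.00530) and also passed with the score as covariate. *Fgf2* was at 6.14, 11.1 and 12.8 CPM at E14.5 and 24.4, 22.3 and 23.9 CPM at E15.5 (log2 fold change 1.23 ± 0.25, adjusted p = 0.00508). The receptor *Fgfr1* was at 229, 304 and 308 CPM at E14.5 and 345, 350.5 and 359 CPM at E15.5 (log2 fold change 0.33 ± 0.18, adjusted p = 0.207).

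Wnt ligands act at the cell surface, where secreted antagonists and co-receptor inhibitors hold them back. Of 18 ligands 0 rose and 4 fell, *Wnt1*, *Wnt3*, *Wnt7a* and *Wnt9b* (median 0.12). *Wnt9b*, an epithelial ligand needed for closure of the lip and palate, was at 2.12, 2.36 and 1.74 CPM at E14.5 and 0.0674, 0.149 and 0.463 CPM at E15.5 (log2 fold change -3.17 ± 0.67, adjusted p = 0.00631) and passed with the score as covariate (adjusted p = 0.0162). *Wnt1*, of the dorsal neural tube, was at 1.79, 0.227 and 0.534 CPM at E14.5 and 0.0674, 0 and 0.0434 CPM at E15.5 (log2 fold change -4.47 ± 0.88, adjusted p = 0.00444). *Wnt5a*, the mesenchymal ligand, was at 87.6, 110.1 and 111 CPM at E14.5 and 36.7, 71.97 and 101 CPM at E15.5 and did not pass without the covariate (log2 fold change -0.56 ± 0.37, adjusted p = 0.284). Of 15 antagonists 6 rose and 0 fell (median 0.81): *Sost*, *Dkk3*, *Sfrp4*, *Wif1*, *Notum* and *Kremen1*. *Sfrp4* was at 2.07, 2.32 and 3.67 CPM at E14.5 and 6.47, 10.9 and 14.6 CPM at E15.5 (log2 fold change 1.99 ± 0.43, adjusted p = 0.00680), *Wif1* at 13.7, 15.9 and 21.98 CPM at E14.5 and 42.9, 63.01 and 87.6 CPM at E15.5 (log2 fold change 1.91 ± 0.55, adjusted p = 0.0246), and *Sfrp2* at 208, 352 and 450.3 CPM at E14.5 and 481, 507 and 417 CPM at E15.5 (log2 fold change 0.48 ± 0.33, adjusted p = 0.309). None of the 6 passed with the score as covariate. The count of 6 was 3 with any of E14.5 replicates 1 and 2 and E15.5 replicates 2 and 3 left out. Among 12 genes that respond to Wnt signals, *Tcf7* (1.52 ± 0.41) and *Lgr6* (1.37 ± 0.32) rose and *Apcdd1*, an inhibitor, fell, with 163, 188 and 131 CPM at E14.5 and 42.8, 66.9 and 88.2 CPM at E15.5 (log2 fold change -1.28 ± 0.33, adjusted p = 0.0149). The 2 rises became 0 with E14.5 replicate 1 left out and 1 with E14.5 replicate 2 or E15.5 replicate 3 left out, and the fall was lost with E14.5 replicate 2 or E15.5 replicate 2 left out. *Axin2*, a common reporter of the pathway, was at 70.3, 59.4 and 55.2 CPM at E14.5 and 29.5, 46.6 and 43.8 CPM at E15.5, with each E15.5 library below each E14.5 library, and did not pass (log2 fold change -0.63 ± 0.25, adjusted p = 0.0821).

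Of 14 TGF-beta genes 4 rose and 0 fell (median 0.57), none with the score as covariate: the ligands *Tgfb1* and *Tgfb3* and the latency binding proteins *Ltbp2* and *Ltbp3*. *Tgfb1* was at 9.25, 12.7 and 14.5 CPM at E14.5 and 29.1, 34.6 and 45.6 CPM at E15.5 (log2 fold change 1.58 ± 0.29, adjusted p = 0.00348). *Ltbp3* was at 85.2, 129 and 147 CPM at E14.5 and 242, 236 and 197 CPM at E15.5 (log2 fold change 0.90 ± 0.26, adjusted p = 0.0243), and *Ltbp2* had the largest change (log2 fold change 1.98 ± 0.61, adjusted p = 0.0311). The count was 1 with E14.5 replicate 1 or E15.5 replicate 2 left out, 2 with E14.5 replicate 2, E15.5 replicate 1 or E15.5 replicate 3 left out, and 7 with E14.5 replicate 3 left out.

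No cell cycle gene of the lists passed. Of 17 genes of DNA replication and 18 of mitosis, 0 rose and 0 fell by edgeR, and 0 had an unadjusted p under 0.05; the medians were 0.08 and 0.15. *Mcm6*, of the replicative helicase, was at 134, 159.9 and 195 CPM at E14.5 and 161, 153 and 172 CPM at E15.5 (log2 fold change -0.01 ± 0.17, adjusted p = 0.964), and *Top2a*, topoisomerase II, at 239, 271 and 323 CPM at E14.5 and 276, 298 and 326 CPM at E15.5 (log2 fold change 0.11 ± 0.26, adjusted p = 0.781). All genes of both lists increased from E14.5 replicate 1 through 2 to 3. Of 17 early response genes 6 rose and 0 fell (median 0.62): *Fos* was at 2.04, 1.73 and 3.53 CPM at E14.5 and 6.14, 8.35 and 9.98 CPM at E15.5 (log2 fold change 1.74 ± 0.37, adjusted p = 0.00602), *Ier3* changed by 1.37 ± 0.17 and *Jund* by -0.00 ± 0.13 (adjusted p = 0.984). The count was 3 with E14.5 replicate 1 or 2 or E15.5 replicate 2 or 3 left out. Of 16 genes of hypoxia and glycolysis, *Ndrg1*, a stress response gene, rose, with 28.9, 28.6 and 37.02 CPM at E14.5 and 111, 108 and 128 CPM at E15.5 (log2 fold change 1.88 ± 0.18, adjusted p = 0.000154), as did *Car9* (2.08 ± 0.57), and *Pfkfb3* fell (log2 fold change -1.27 ± 0.22, adjusted p = 0.00260). The call on *Car9* was kept in 2 of the 6 leave-one-out fits. *Ldha* was at 399.8, 419 and 533 CPM at E14.5 and 629, 591 and 694 CPM at E15.5 (log2 fold change 0.50 ± 0.26, adjusted p = 0.170).

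Of 15 endothelial genes 1 rose, *Plvap* (log2 fold change 0.83 ± 0.29, adjusted p = 0.0499), and its call was kept in 1 of the 6 leave-one-out fits and lost with the replicate block. *Cdh5*, an adhesion protein of these cells, was at 84.8, 118 and 123.4 CPM at E14.5 and 169.7, 147 and 135 CPM at E15.5 and did not pass (log2 fold change 0.47 ± 0.24, adjusted p = 0.163). Of 12 oncofetal genes, which decline in many tissues towards birth, 4 fell and 0 rose; the count was 1 with E15.5 replicate 2 left out and 2 with E14.5 replicate 1 or E15.5 replicate 3 left out. *Igf2bp1*, an RNA-binding protein, was at 65.3, 77.98 and 79.9 CPM at E14.5 and 54.3, 40.1 and 41.8 CPM at E15.5 (log2 fold change -0.71 ± 0.15, adjusted p = 0.00695) and *Lin28a* at 0.841, 0.378 and 0.520 CPM at E14.5 and 0.169, 0.119 and 0.159 CPM at E15.5 (log2 fold change -1.95 ± 0.49, adjusted p = 0.0135). The imprinted transcript *H19* was at 2122, 3952 and 5984 CPM at E14.5 and 8311, 6504 and 6808 CPM at E15.5 and did not pass (log2 fold change 0.84 ± 0.42, adjusted p = 0.151).

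A ratio of 2 genes of the same cells does not change when a library merely holds more or less of those cells. Some of the pairs, such as *Dnah5* over *Epcam* and *Ctsk* over *Csf1r*, set genes of different cells against each other. Such ratios also move with the mix of cells, and the part of that mix was not tested. For 27 pairs chosen after the values were seen, 24 had groups that did not overlap. Among all single genes tested, every E15.5 library lay above every E14.5 library in 24.0% and below in 27.2%. The pairs were picked with the values known, so that their count is only a description. With 3 libraries against 3 the smallest two-sided exact permutation p is 0.1, so that none could pass a test. *Ibsp* over *Runx2*, a matrix product over the regulator, was 2.79, 1.19 and 2.31 at E14.5 and 16.9, 15.6 and 19.05 at E15.5. *Ctsk* over *Csf1r*, osteoclasts over macrophages and osteoclasts, was 0.441, 0.661 and 1.01 and then 1.73, 1.99 and 3.12. *Krt13* over *Krt5*, suprabasal over basal, was 0.00470, 0.00427 and 0.00640 and then 0.377, 0.402 and 0.458. The 3 E15.5 values of that ratio were close although the *Krt5* level itself differed several-fold between these libraries. *Krt10* over *Krt5* overlapped between stages, with 0.0741, 0.0865 and 0.0755 and then 0.0312, 0.0169 and 0.132.

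*Dnah5* over *Epcam*, cilia over epithelium, was 0.0776, 0.0389 and 0.0330 at E14.5 and 0.540, 0.391 and 0.319 at E15.5. *Ckm* over *Myog*, late over early muscle differentiation, was 0.0567, 0.125 and 0.238 and then 1.97, 4.30 and 1.50. *Tnni2* over *Tnni1*, fast over slow troponin, was 0.124, 0.180 and 0.208 and then 0.404, 0.830 and 0.428. In these muscle ratios the libraries of the 2 stages were separate, as they also were in the summed level of the sarcomere genes. The number of sarcomere genes that rose depended on single libraries. *Hbb-y* over *Hbb-bs* was 1.94, 2.23 and 1.83 and then 0.0154, 0.00702 and 0.00721.

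Within the neural RNA, *Lhx5* over *Tubb3*, interneurons of the central nervous system over all neurons, was 0.0253, 0.0202 and 0.0209 at E14.5 and 0.000628, 0.000358 and 0.000138 at E15.5. *Slc17a6* over *Tubb3* was higher in each E15.5 library than in each E14.5 library, with 0.0604, 0.0513 and 0.0559 and then 0.0931, 0.0686 and 0.0616. Its stage means differed 1.33-fold, and those of *Lhx5* over *Tubb3* 59.1-fold in the other direction. *Ttr* over *Tubb3* overlapped between the stages. Stage and the neural tissue held by the pools cannot be told apart for these genes, since each stage is represented by its own 3 pools.

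**Figure D4:**
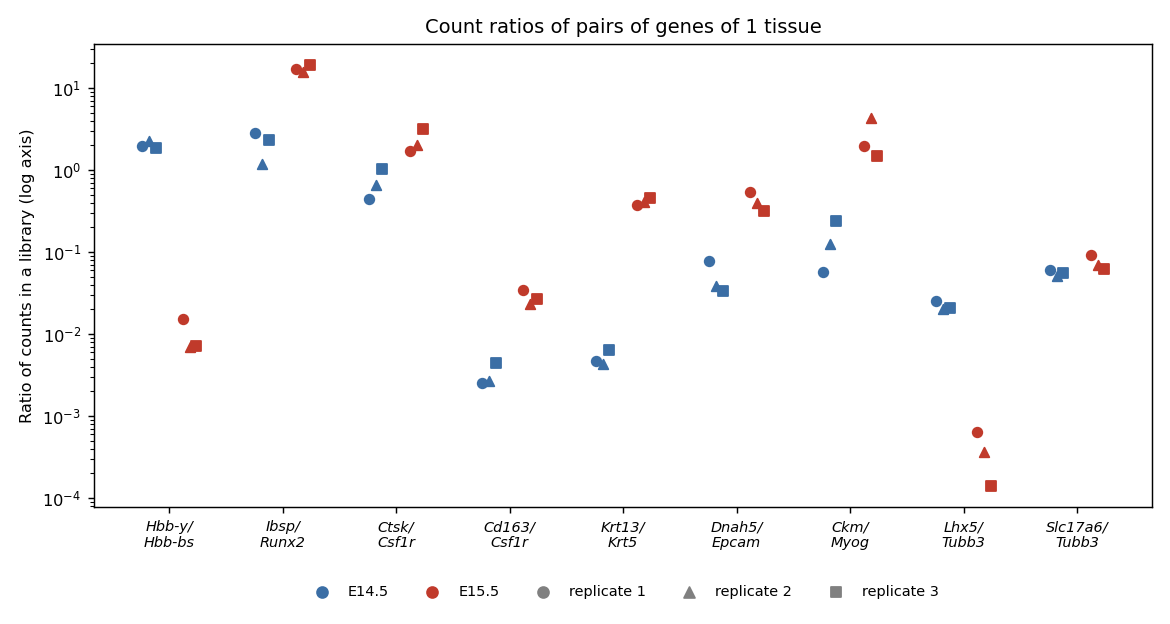
Ratio of the counts of 2 genes in each library (log axis; blue E14.5, red E15.5; circles, triangles and squares are replicates 1, 2 and 3) for 9 pairs of genes. In *Krt13* over *Krt5*, *Ibsp* over *Runx2* and *Hbb-y* over *Hbb-bs* the stages are far apart and the libraries of a stage close together.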

How the data were processed

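The authors deposited 1 table of raw counts of 54232 genes in 15 libraries, all 15 columns matching a sample by name (0 left over). Per the file headers, featureCounts 2.0.1 counted read pairs on the reverse strand against the GENCODE M18 annotation in adapter-trimmed, duplicate-marked alignments; the submitters' processing notes name cutadapt 3.4, HISAT2 2.2.1, SAMtools 1.12 and mm10. Symbols came from GENCODE M21 by gene identifier (54079 genes). From these counts, edgeR 4.0.16 (R 4.3.3; TMM scaling, filterByExpr with a minimum count of 10, 22151 genes) fitted the quasi-likelihood model to all 15 libraries with 1 coefficient per stage, and the E15.5 minus E14.5 contrast was adjusted by Benjamini-Hochberg at 0.05 over all genes. The common coefficient of variation between libraries was 0.332.

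The neuronal score used a prior count of 2; a gene followed it where its coefficient, fitted beside the stages, had an adjusted p under 0.05. CPM are TMM-scaled. The genes named outside the lists were the 10 largest rises and 10 largest falls not following the score and the 5 of each following it, among called genes whose groups did not overlap and whose higher stage averaged 10 CPM or more; each list described is given with its member of the highest mean CPM over the 2 stages and its called member of the largest change. The gene lists and members were chosen with earlier results of these data known. Alternatives were DESeq2 1.42.0, 2 other scalings, 2 filters, only 6 libraries, a replicate block, the score as covariate, a score from other genes and leaving out each library. The fit was checked on simulated counts. The command in the file header holds no option that drops marked duplicates, so levels can include copies made by PCR. Some genes of the lists are counted but not reported here by name.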

Additional observations from a re-analysis of the deposited data

How the results depend on the processing

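The 6 libraries held 58.2 M to 69.0 M counts, and genes under about 0.05 CPM rest on a few counts; a smaller depth was not tried. With the neuronal score as covariate 7 of the 2970 falls changed sign, all among the 659 that followed the score, and the median of 10 of the 39 lists changed sign, among them synaptic genes (-1.22 to 0.35), fusion and periderm regulators (0.46 to -0.35) and Wnt ligands (0.12 to -0.83). Of the 246 called genes that belong to a list or are named, 0 changed sign with the covariate or without 1 library. Over all genes the counts of higher and lower calls were 3656 and 3552 with DESeq2, 2914 and 2720 with DESeq2's size factors in edgeR, 3424 and 2007 with upper-quartile scaling (1536 of the lower ones not following the score), 2540 and 1959 with no filter on low counts (1510 of the lower ones not following the score), 2656 and 2144 with a mean of at least 1 CPM, and 2822 and 3747 with only the 6 libraries. Falls therefore depended more on the filter and scaling than rises in these settings.

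The neuronal score as covariate left 546 higher and 177 lower genes, of which 527 and 99 by at least 2-fold (2116 and 1299 without it). With it the counts of higher members were 10 for bone matrix, 1 for osteoblast regulators, 3 for osteoclast, 1 for macrophage, 3 for connective tissue matrix, 0 for sarcomere, 0 for myogenic regulators, 0 for basal and 2 for suprabasal epithelium, 9 for multiciliated, 5 for nasal secretory, 0 for Wnt antagonists, 0 for TGF-beta and 1 for early response genes. The counts of lower members were 1 pan-neuronal, 0 synaptic, 1 neural progenitor, 0 forebrain, 0 hindbrain Hox, 1 choroid plexus, 2 Wnt ligands and 0 oncofetal genes. A score from the synaptic list was followed by 2091 genes.

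Other settings moved some short lists by over 1.5 times. Osteoblast regulators had 9 higher with DESeq2 and 10 with only the 6 libraries; Schwann genes had 6 with DESeq2, 5 with upper-quartile scaling, 5 with a mean of at least 1 CPM and 5 with only the 6 libraries; myogenic regulators had 6 with upper-quartile scaling; sarcomere genes had 14 with only the 6 libraries. Lower members were 10 hindbrain Hox, 5 forebrain and 5 choroid plexus genes with DESeq2, 10 hindbrain Hox, 9 neural progenitor and 7 forebrain genes with only the 6 libraries, and 2 oncofetal genes with a mean of at least 1 CPM. The cause of these shifts was not tested.

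Libraries of the 2 stages share replicate numbers, but same-numbered libraries did not deviate together (correlations of -0.02, -0.20 and 0.21), and the numbers are not taken to pair them. With a replicate block 2729 genes were higher and 3131 lower, with 9 osteoblast regulators, 1 myogenic regulator, 8 sarcomere and 9 basal epithelial genes higher and 8 hindbrain Hox genes lower.

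Leaving out 1 library at a time gave 1234 to 2765 higher and 1086 to 3081 lower genes, 1081 to 2337 and 531 to 1560 by at least 2-fold, 1201 to 2666 higher and 947 to 2567 lower genes that did not follow the score, and 1285 to 1675 genes that followed it (fewest without E15.5 replicate 1). Higher members ranged from 0 to 8 for myogenic regulators, 1 to 29 for sarcomere, 0 to 5 for basal epithelium, 3 to 12 for macrophage, 0 to 3 for Schwann, 3 to 7 for Wnt antagonists, 1 to 7 for TGF-beta, 3 to 6 for early response and 14 to 23 for connective tissue matrix genes. Lower members ranged from 4 to 10 for pan-neuronal, 2 to 10 for synaptic, 2 to 5 for neural progenitor, 1 to 6 for hindbrain Hox, 1 to 4 for oncofetal and 1 to 4 for choroid plexus genes.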

Other observations

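Further groups of genes were looked at after their values had been seen, so that their counts are a description. Mast cells store histamine and proteases in granules; of 9 of their genes 3 were higher at E15.5 (*Hdc*, *Mcpt4* and *Tpsb2*). *Hdc*, which makes histamine, stood at 3.04, 2.41 and 5.39 CPM at E14.5 and 27.9, 66.6 and 75.8 CPM at E15.5 (log2 fold change 3.97 ± 0.48, adjusted p = 0.000443 by edgeR). Of 8 tendon genes 5 were higher (*Tnmd*, *Thbs2*, *Thbs4*, *Kera* and *Chodl*), and *Tnmd*, a membrane protein of tendon cells, stood at 0.935, 2.86 and 7.23 CPM at E14.5 and 56.7, 12.9 and 11.96 CPM at E15.5 (log2 fold change 2.88 ± 0.88, adjusted p = 0.0313).

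Of 11 genes of centriole multiplication and of the ciliary rootlet 5 were higher (*Deup1*, *Ccdc78*, *Cdc20b*, *Foxn4* and *Crocc2*). *Deup1*, which builds the deuterosome on which centrioles form, stood at 3.16, 0.621 and 2.19 CPM at E14.5 and 26.9, 58.4 and 64.5 CPM at E15.5 (log2 fold change 4.65 ± 0.69, adjusted p = 0.00119). Of 10 genes of xenobiotic metabolism 6 were higher (*Cyp2a5*, *Cyp2f2*, *Cbr2*, *Aldh1a1*, *Ephx1* and *Fmo1*); *Cyp2a5*, an enzyme of the olfactory mucosa and liver, stood at 1.48, 0.742 and 0.702 CPM at E14.5 and 0.725, 40.3 and 31.6 CPM at E15.5 (log2 fold change 4.64 ± 1.23, adjusted p = 0.0173). As in the nasal secretory list, E15.5 replicate 1 was the lowest of its stage in *Cyp2a5*.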
